A study of Homo sapiens with 18 samples.

Results

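The genes described here are 10 transcription factor genes of hematopoietic stem and progenitor cells, namely MYB, RUNX1, RUNX2, RUNX3, GATA2, LMO2, LYL1, ERG, FLI1 and SOX4. They were chosen by name, and each symbol was found at 1 of the 58037 Ensembl gene IDs in the bulk RNA count table. The study treated acute myeloid leukemia (AML) cell lines with an inhibitor of menin, a cofactor that tethers MLL1 and its fusion proteins to chromatin, and asked what a BET inhibitor adds. RNA was sequenced from 18 libraries in 8 groups after 16 h of culture. MOLM13 cells carry an MLL-AF9 fusion and came with 2 libraries per group. The groups were a control, 500 nM SNDX-50469, 500 nM OTX015 (the BET inhibitor) and 500 nM of each. SNDX-50469 is the menin inhibitor, called VTP in the sample titles. MV4-11 cells carry an MLL-AF4 fusion and came as a control and with 1000 nM SNDX-50469, with 2 libraries each. OCI-AML3 cells have no MLL fusion but a mutant NPM1, and came as a control and with 500 nM SNDX-50469, with 3 libraries each. MOLM13 and OCI-AML3 cells were grown in RPMI medium and MV4-11 cells in IMDM. For MV4-11, cell line, medium and dose therefore cannot be told apart. OCI-AML3 libraries were sequenced more deeply than the others, so for that line cell line and depth cannot be told apart. Each line is a single established culture, and the study describes its control cells as untreated. By RefSeq positions on GRCh38.p14 the genes span chr6:135181308-135219172 (MYB), chr21:34787801-35049302 (RUNX1), chr6:45328330-45551082 (RUNX2), chr1:24899511-24965138 (RUNX3), chr3:128479422-128493201 (GATA2), chr11:33858576-33892076 (LMO2), chr19:13099033-13102858 (LYL1), chr21:38367261-38661783 (ERG), chr11:128685132-128813267 (FLI1) and chr6:21593751-21598619 (SOX4), and counts cover whole genes.

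These factors act together at enhancers of blood stem and progenitor cells. GATA2, the LIM protein LMO2, the basic helix-loop-helix factor LYL1 (a relative of TAL1), RUNX1 and the ETS factors ERG and FLI1 occupy shared regulatory elements, and several of them keep progenitor genes on while holding back maturation. MYB sustains the growth of immature cells, and many myeloid leukemias depend on it.

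Library totals ran from 19320216 to 23684811 counts in MOLM13, from 20730486 to 30090830 for the MV4-11 cells, and OCI-AML3 libraries held 49881047 to 59711884. Levels are given as CPM, the counts divided by the library total and multiplied by 1e6, scaled by the trimmed mean of M values (TMM) over all 18 libraries, and a fold change was called where the adjusted p of edgeR's quasi-likelihood test was below 0.05 and the change was at least the fold limit that the study used. Replicates varied least in MOLM13 (a biological coefficient of variation of 3.06%) and OCI-AML3 (3.15%) and most, by 13.2%, among MV4-11 libraries, where control replicate 1 stood apart with 10.3% mitochondrial counts against 5.6% to 6.68% in the other 3 libraries. MEIS1, a menin target, was lower with SNDX-50469 in all 3 lines (by log2 -2.60 ± 0.09 SE in MOLM13, -1.86 ± 0.17 in the MV4-11 cells and -0.49 ± 0.04 in OCI-AML3), and with both agents in MOLM13 it was less reduced (29.0 ± 0.0102 CPM, against 6.6 ± 0.261 with SNDX-50469 and 40.8 ± 3.68 in the controls, SD, n = 2). HEXIM1, which BET inhibitors induce, was higher with OTX015 in MOLM13 (2.11 ± 0.05). It was also called higher with SNDX-50469 in MV4-11 and OCI-AML3, but not in MOLM13. Myeloid markers summed to between 638 and 3193 CPM in every library, and the marker lists of lymphoid, erythroid and megakaryocytic, endothelial, and stromal and epithelial cells each summed to at most 10.2 CPM. COL1A1, on the stromal list, was called higher with SNDX-50469 in MV4-11 and OCI-AML3 and with both agents in MOLM13. In OCI-AML3, 2 of 2 tested genes of that list were called higher. The whole list stayed at or below 9.18 CPM, with KRT18 its highest gene in treated MV4-11 (7.51 CPM). In MOLM13, the 1 endothelial gene tested was called higher with OTX015 (log2 1.58) and with both agents (2.11), and 1 of 3 lymphoid genes tested was called lower in each. The endothelial gene, CLDN5, had a low level, at 0.222 CPM in the controls, 0.667 with OTX015 and 0.985 with both agents. In RNA from whole cultures, fewer cells of a type and less RNA per cell cannot be told apart. The study calls the MOLM13 and OCI-AML3 libraries biologic replicates. Nothing says so of MV4-11, so the spread between its libraries may be technical. Each line is a single culture, so p-values in all 3 lines cover the spread between libraries alone.

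RefSeq promoter windows (GRCh38.p14), from 250 bases before to 50 after an annotated start, were found for 8 of the 10 genes, with 14 windows in all. Those shown belong to the genes with the largest log2 changes between groups of the same line, and each is written 5′ to 3′ on the gene's strand. Capitals mark matches on either strand to motifs of the factors themselves other than SOX4, or to the TATA box. No SOX motif was searched. The ETS core GGAAG occurs in 71.9% of 35116 promoter windows of this length, and the RUNX motif TGTGGT in 13.1%. The motif of GATA2 and its relatives, AGATAA, occurs in 10.3%. The E-box of basic helix-loop-helix factors, CAGCTG, occurs in 17.9%. For MYB the letters TAACNG were searched, which occur in 20.7% of windows. The TATA box was searched by the letters TATAAA, found in 11.5%. The windows of RUNX2 (chr6:45328080-45328379, plus strand), GATA2 (chr3:128493152-128493451 and chr3:128488481-128488780, minus strand), LYL1 (chr19:13102809-13103108, minus strand) and SOX4 (chr6:21593501-21593800, plus strand) read as follows.
RUNX2, distal start: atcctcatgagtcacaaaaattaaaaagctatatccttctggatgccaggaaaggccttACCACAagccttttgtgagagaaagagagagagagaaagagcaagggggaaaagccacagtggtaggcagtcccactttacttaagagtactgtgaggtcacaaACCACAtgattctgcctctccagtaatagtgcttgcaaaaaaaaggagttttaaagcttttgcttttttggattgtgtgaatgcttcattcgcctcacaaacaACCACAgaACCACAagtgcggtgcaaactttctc
GATA2, distal start: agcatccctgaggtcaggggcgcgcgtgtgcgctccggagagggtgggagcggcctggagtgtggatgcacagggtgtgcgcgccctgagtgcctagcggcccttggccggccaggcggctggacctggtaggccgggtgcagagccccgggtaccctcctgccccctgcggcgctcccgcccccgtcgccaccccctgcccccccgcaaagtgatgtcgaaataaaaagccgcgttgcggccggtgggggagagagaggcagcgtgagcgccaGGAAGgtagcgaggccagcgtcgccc
GATA2, proximal start: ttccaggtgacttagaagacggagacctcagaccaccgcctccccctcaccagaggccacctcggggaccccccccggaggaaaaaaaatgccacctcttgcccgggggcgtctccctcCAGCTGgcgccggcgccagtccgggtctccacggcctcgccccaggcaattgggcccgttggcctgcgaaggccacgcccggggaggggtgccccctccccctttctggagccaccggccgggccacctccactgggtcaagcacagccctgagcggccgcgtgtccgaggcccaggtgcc
LYL1: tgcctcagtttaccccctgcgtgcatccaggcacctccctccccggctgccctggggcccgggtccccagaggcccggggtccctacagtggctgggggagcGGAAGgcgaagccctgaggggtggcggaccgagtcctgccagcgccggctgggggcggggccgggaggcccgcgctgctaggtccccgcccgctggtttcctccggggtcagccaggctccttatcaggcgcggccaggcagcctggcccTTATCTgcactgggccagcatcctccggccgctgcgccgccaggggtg
SOX4: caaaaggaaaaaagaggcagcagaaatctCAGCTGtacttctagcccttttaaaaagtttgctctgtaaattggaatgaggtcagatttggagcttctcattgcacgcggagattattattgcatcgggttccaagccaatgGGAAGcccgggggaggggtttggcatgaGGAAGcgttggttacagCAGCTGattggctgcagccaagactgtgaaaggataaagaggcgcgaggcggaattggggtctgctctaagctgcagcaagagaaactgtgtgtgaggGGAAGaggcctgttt
The distal RUNX2 window held 4 matches to TGTGGT, a count reached by 5 of the 35116 windows (0.0142%), a threshold set after the matches were seen. The other RUNX2 window (chr6:45422025-45422324), not shown, held 0 such matches and 2 E-boxes, with 76.0% G and C. The distal RUNX3 window held 2 matches to TGTGGT and the other RUNX3 window 0, and 1.31% of windows held 2 or more. The SOX4 window held 3 ETS and 2 E-box matches and had 49.3% G and C, against 42.7% in the RUNX2 window shown, 72.3% and 71.3% in the GATA2 windows, 74.7% in the LYL1 window and a median of 58.7% over all windows. No matches overlapped in these windows. A match is a string of letters and not an occupied site. The only windows found for MYB and RUNX1 held none of these 6 motifs, and neither did 1 of the ERG windows. The RUNX1 window (chr21:34888650-34888949) lies inside the gene, and none was found at the gene's 5′ end.

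In control cells the genes differed most between lines at GATA2 and ERG. GATA2 encodes a zinc finger factor needed to maintain stem cells, and its level was 56.3 and 60.2 CPM in the MOLM13 controls, 2.37 and 1.91 in the MV4-11 controls, and 3.93, 3.57 and 3.75 in the OCI-AML3 controls. MOLM13 thus stood apart from both other lines, with log2 differences of 3.96 ± 0.08 from OCI-AML3 (adjusted p = 2.92e-19) and 4.79 ± 0.11 from MV4-11 (9.41e-18). ERG encodes an ETS factor of stem cells and endothelium. It was read at 8.71, 8.66 and 8.22 CPM in the OCI-AML3 controls, but by 0 and 1 counts in the MOLM13 controls and by 5 and 2 counts in the MV4-11 controls. The other 6 MOLM13 libraries held 0 counts of ERG, which allows up to 3 counts, or at most 0.161 CPM in any of them, for counting error only. The OCI-AML3 control level was 344 times that of the MOLM13 controls, with a lower bound of 61.8 from an exact 95% Poisson interval of the MOLM13 count, and 62.4 times that of the MV4-11 controls (30.3 to 155).

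FLI1, the ETS factor most closely related to ERG, was well expressed in all 3 lines. Its control levels were 102 and 103 CPM in MOLM13, 139, 145 and 142 across OCI-AML3 and 262 and 205 for MV4-11, without overlap between lines. MYB, RUNX1, RUNX3 and LYL1 had the same order of lines without overlap, with MV4-11 highest and OCI-AML3 lowest. The control means in MV4-11, MOLM13 and OCI-AML3 were 138, 71.1 and 35.1 CPM for RUNX3. Those of LYL1 were 204, 168 and 66.0 CPM, and its step from MOLM13 to MV4-11 was not called (log2 -0.28 ± 0.09 for MOLM13 minus MV4-11). MYB reached 619 and 553 CPM in MV4-11, 477 and 506 in MOLM13, and 277, 289 and 282 in OCI-AML3, and the step from MOLM13 to MV4-11 (log2 -0.25 ± 0.07 for MOLM13 minus MV4-11) did not pass the fold limit but was called with limma and with other scalings (-0.4456 to -0.3568). RUNX2 was highest in OCI-AML3, at 80.8, 85.2 and 88.3 CPM, with 38.9 and 42.4 for MV4-11 and 24.7 and 25.5 for MOLM13. LMO2, the LIM-only bridge between GATA and basic helix-loop-helix factors, was higher in MV4-11 (292 and 287 CPM) than in MOLM13 (172 and 159), while the OCI-AML3 controls (178, 162 and 155) overlapped those of MOLM13 at a log2 difference of 0.00 ± 0.06. SOX4, a high mobility group factor of lymphoid and myeloid progenitors, overlapped between MOLM13 (140.4 and 145 CPM) and OCI-AML3 (144, 135 and 130.4) and was lower in MV4-11 (94.6 and 109.9). The difference between MOLM13 and OCI-AML3 was called for 8 of 10 genes, against 64.2% of the 17597 genes tested, between MOLM13 and MV4-11 for 7 of 10, against 63.5%, and between MV4-11 and OCI-AML3 for 10 of 10, against 67.4%.

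Per kilobase of the canonical transcript, MYB was the highest of the genes in the MOLM13 controls (133 ± 5.58 CPM per kb, SD, n = 2) and the MV4-11 controls (159 ± 12.6). In the OCI-AML3 controls LMO2 (79.4 ± 5.64, n = 3) and MYB (76.7 ± 1.69) differed by less than the SD of LMO2. LYL1 (113 ± 4.36) came before LMO2 (79.6 ± 4.48) in the MOLM13 controls, an order that turned when all exons were used as the length. ERG was lowest in MOLM13 and MV4-11. GATA2 was lowest in OCI-AML3 (1.11 ± 0.0534), below ERG (1.74 ± 0.055). In the MOLM13 controls GATA2 (17.2 ± 0.812) and RUNX3 (16.7 ± 0.0868) differed by less than the SD of GATA2.

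**Figure D1:**
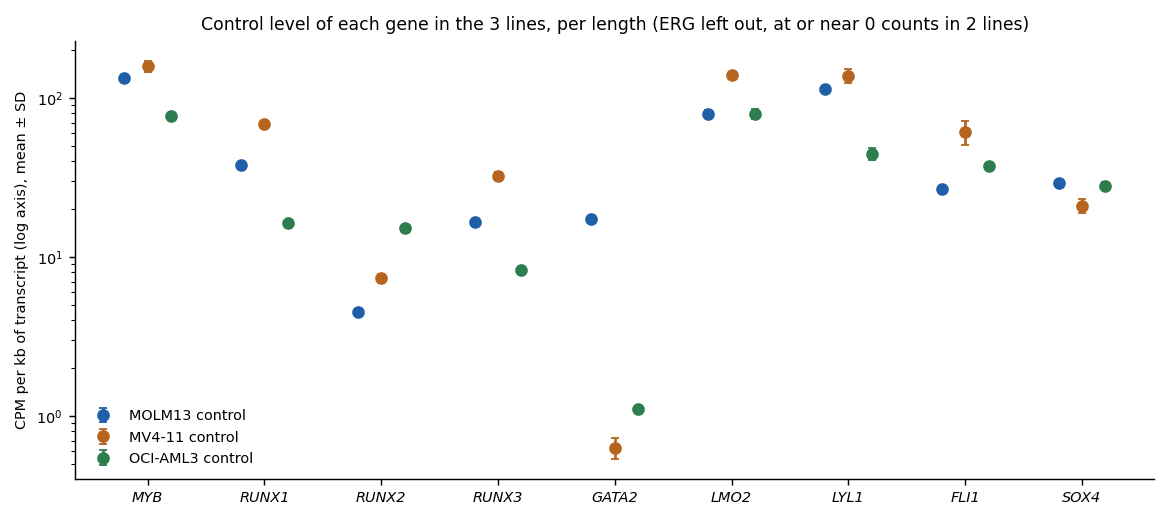
Mean control level per kilobase of canonical transcript (y axis, CPM per kb, log scale, ± SD) of 9 genes in MOLM13 (n = 2), MV4-11 (n = 2) and OCI-AML3 (n = 3). GATA2 lies at 17.2 in MOLM13 but at 0.633 and 1.11 in the other two lines, and RUNX2 is the gene whose highest point is OCI-AML3.

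The RUNX family binds DNA through the Runt domain together with CBFB. RUNX1 is needed for definitive hematopoiesis, RUNX2 is best known as the regulator of bone-forming cells, and RUNX3 acts in T cells and in myeloid cells. Of the summed RUNX level per kilobase, RUNX1 made up 64.2% ± 0.459 (SD, n = 2) in the MOLM13 controls and 63.5% ± 0.458 in the MV4-11 controls, but 41.0% ± 0.341 (n = 3) in the OCI-AML3 controls, where RUNX2 made up 38.4% ± 1.11. RUNX2 was 7.65% ± 0.0736 of the family in MOLM13 and 6.77% ± 0.572 in MV4-11. With OTX015 the RUNX1 share in MOLM13 was 79.6% ± 0.206, and with both agents 80.2% ± 1.45. With SNDX-50469 the RUNX2 share was 28.1% ± 0.782 in OCI-AML3 and 3.12% ± 0.275 in MV4-11, where the RUNX3 share was 45.5% ± 7.32 against 29.8% ± 1.03 in the controls. These shares rest on transcript length, and with all exons as the length the RUNX1 share was 45.4% in the MOLM13 controls. By that length RUNX3 (47.2%) came before RUNX1 (44.5%) in the MV4-11 controls, and RUNX2 (43.6%) before RUNX1 (26.4%) in the OCI-AML3 controls. Shares were not tested and are given as a description.

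**Figure D2:**
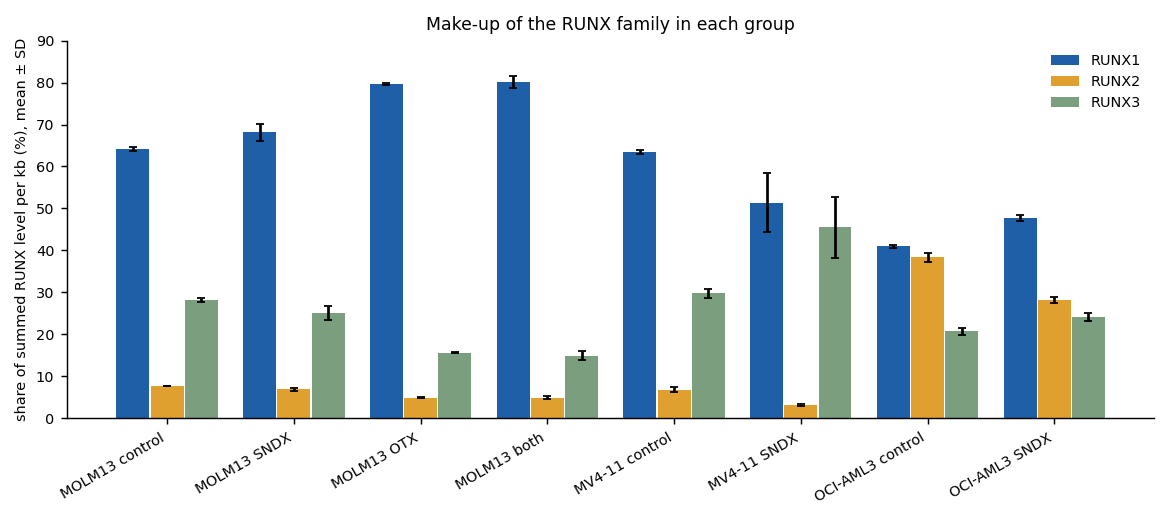
Share of RUNX1, RUNX2 and RUNX3 in their summed level per kilobase (y axis, percent, mean ± SD) in each of the 8 groups (n = 2, or 3 for OCI-AML3). RUNX1 makes up 79.6% and 80.2% in the MOLM13 groups with OTX015, and RUNX2 exceeds 25% in the OCI-AML3 groups and stays below 8% in the others.

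**Figure D3:**
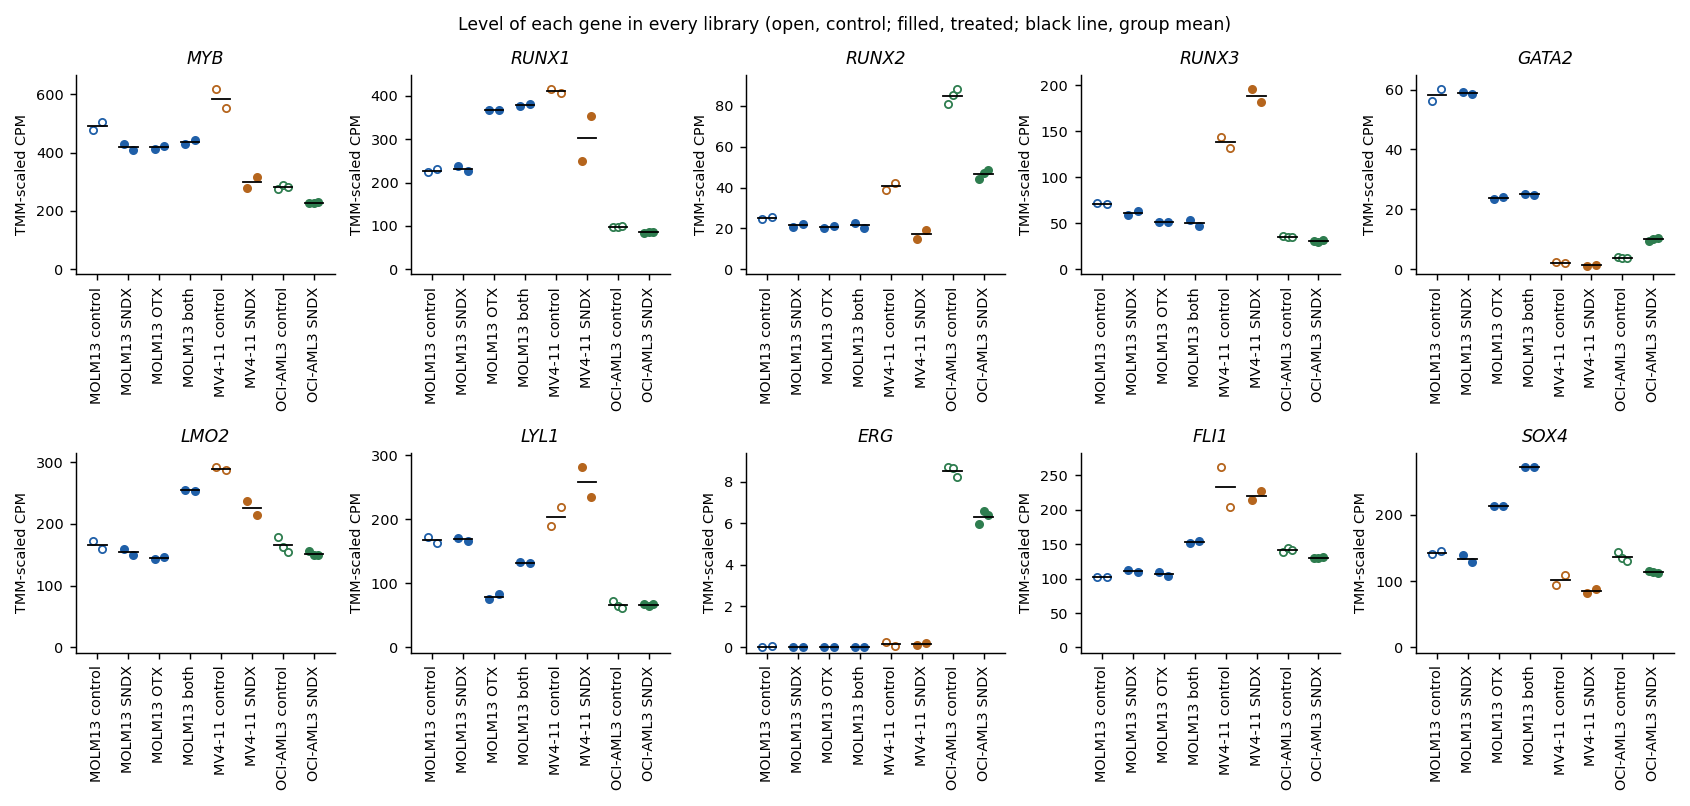
TMM-scaled CPM (y axis, from 0, with its own scale per gene) of each gene in each of the 18 libraries, by group (x axis). Open points are controls, filled points are treated libraries and black lines are group means. The OTX015 groups stand apart from the other MOLM13 groups at RUNX1, GATA2, LYL1, SOX4 and, by a smaller gap, RUNX3.

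With SNDX-50469 alone in MOLM13, none of the 9 genes that passed the filter on low counts was called by edgeR, against 13.3% of the 14360 genes tested, and ERG did not pass the filter. DESeq2 called 0 as well, and 4 of the 9 had an unadjusted p below 0.05 in edgeR. The median log2 change of the 9 genes was -0.06, and that of all genes 0.01. MYB read 477 and 506 CPM in the controls and 430.5 and 409 with SNDX-50469. These libraries did not overlap, and the log2 change of -0.20 ± 0.04 (adjusted p = 3.71e-05) lay within the fold limit. RUNX3 (-0.19 ± 0.06, adjusted p = 0.00969) and FLI1 (0.15 ± 0.05, 0.0145) were likewise below 0.05 but within the fold limit. RUNX1, RUNX2, GATA2, LMO2, LYL1 and SOX4 had log2 values between -0.19 and 0.06 with adjusted p from 0.0766 to 0.629.

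OTX015 alone changed 5 of the 9 genes in MOLM13, against 48.1% of all genes, with RUNX1 and SOX4 higher and GATA2, LYL1 and RUNX3 lower. RUNX1 read 224 and 230.3 CPM in the controls and 367 and 368 with OTX015, and the log2 change was 0.72 ± 0.04 (adjusted p = 1.57e-24). SOX4 went from 140.4 and 145 to 213.5 and 213.2 CPM (0.61 ± 0.04, 2.84e-19). Neither gene's groups overlapped. GATA2 fell from 56.3 and 60.2 to 23.4 and 24.3 CPM (-1.26 ± 0.07, 5.12e-25). LYL1 fell from 173 and 163 to 74.9 and 82.8 CPM (-1.06 ± 0.05, 2.18e-28). The treated levels were 0.416 and 0.478 times those of the controls. RUNX3 fell less, from 71.4 and 70.8 to 51.0 and 51.6 CPM (-0.44 ± 0.06, 4.22e-09). MYB (-0.21 ± 0.04), RUNX2 (-0.25 ± 0.09) and LMO2 (-0.16 ± 0.05) had adjusted p below 0.05 but did not pass the fold limit, and FLI1 read 0.08 ± 0.05. The share of mitochondrial counts was 4.36% and 4.83% in the controls and 5.6% and 5.56% with OTX015, and the 7 myeloid markers summed to 818 to 864 CPM with OTX015 against 1445 to 1459 in the controls, with 5 of 6 tested lower. The part of either in these values was not tested.

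**Figure D4:**
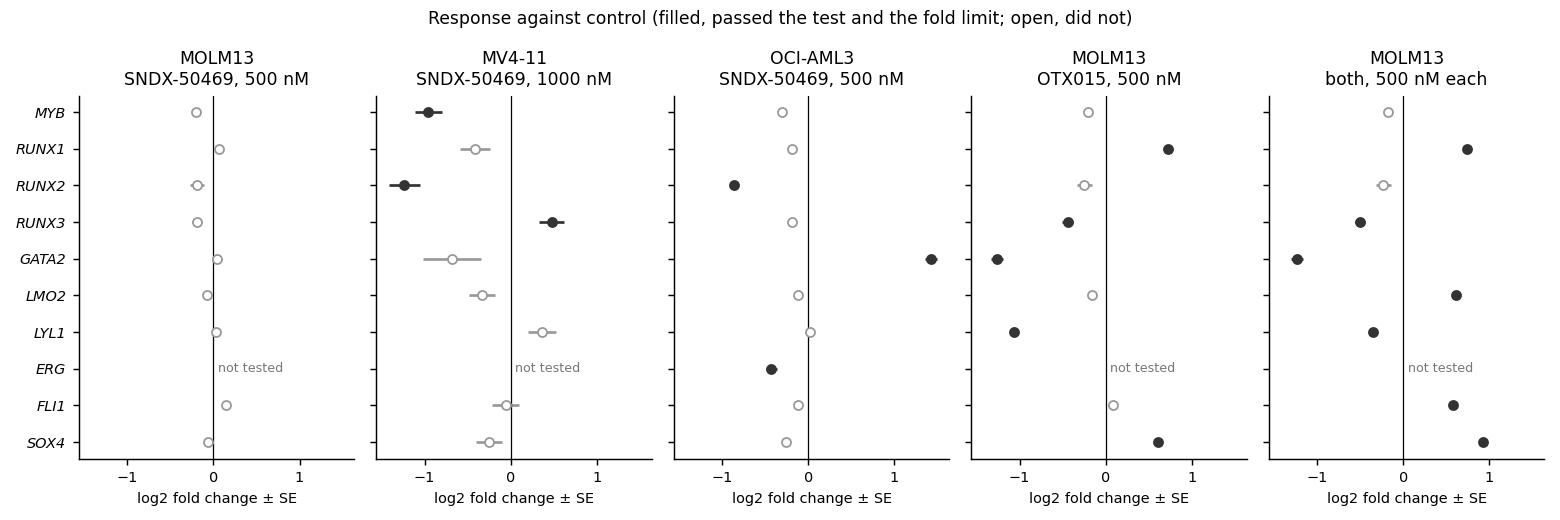
Log2 fold change against the control of the same line (x axis, ± SE) for each gene (y axis) in 5 comparisons. Filled points passed the test and the fold limit, with 0 such points for SNDX-50469 in MOLM13, 3 each in MV4-11 and OCI-AML3, 5 for OTX015 and 7 for both agents, and the MV4-11 cells received another dose than the rest.

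With both agents, 7 of the 9 genes differed from the MOLM13 controls, against 62.1% of all genes. The comparisons in MOLM13 share control or single-agent libraries and are not independent of each other. LMO2 and FLI1, called with neither agent alone, were higher. LMO2 read 172 and 159 CPM in the controls, 159 and 149.8 with SNDX-50469, 143 and 147 with OTX015, and 256 and 254 with both. The libraries with both agents were above all others, at a log2 change of 0.62 ± 0.04 from the controls (adjusted p = 8.67e-20). FLI1 read 102 and 103 CPM in the controls, 113 and 109.0 with SNDX-50469, 109.3 and 103.5 with OTX015, and 152 and 154 with both (0.58 ± 0.05, 2.52e-17). SOX4 rose to 272 CPM in each library with both agents (0.93 ± 0.04, 1.14e-28), above every library with OTX015. LYL1, at 133 and 131 CPM with both agents, lay between the controls and the libraries with OTX015, and its log2 change from the controls of -0.35 ± 0.05 (1.55e-09) was within the fold limit under 3 other scalings or tests (-0.25 to -0.30) and without control replicate 1 (-0.31). GATA2 (25.1 and 24.8 CPM, -1.23 ± 0.07), RUNX1 (378 and 382 CPM, 0.74 ± 0.04) and RUNX3 (53.5 and 47.4 CPM, -0.50 ± 0.06) had log2 changes from the controls close in value to those with OTX015 alone. MYB (-0.17 ± 0.04) and RUNX2 (-0.23 ± 0.09) did not pass the fold limit. Mitochondrial counts made up 5.74% and 6.01% with both agents, and of 6 myeloid markers tested 4 were lower and 1 higher, at sums of 1264 to 1268 CPM. The part of either in these values was not tested.

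Against SNDX-50469 alone, the combination changed 6 of the 9 genes (57% of all genes), with SOX4 (log2 0.99 ± 0.04), LMO2 (0.69 ± 0.04), RUNX1 (0.68 ± 0.04) and FLI1 (0.43 ± 0.05) higher and GATA2 (-1.27 ± 0.07) and LYL1 (-0.38 ± 0.05) lower. Against OTX015 alone, it changed 3 of 9 (34.9% of all genes), with LMO2 (0.78 ± 0.04), LYL1 (0.72 ± 0.05) and FLI1 (0.50 ± 0.05) higher. SOX4, at 0.32 ± 0.04 (adjusted p = 1.97e-09), lay just within the fold limit of 0.3219 on the log2 scale and was called by DESeq2, by limma, with other scalings and over all 18 libraries (0.3258 to 0.3808). GATA2, RUNX1, RUNX2, RUNX3 and MYB had log2 values between -0.06 and 0.04 there, with adjusted p from 0.468 to 0.887.

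Whether the change with both agents differed from the sum of the log2 changes with each was tested by the interaction term. It was called for 4 of the 9 genes, against 24.2% of all genes. All 4 were above the sum, against 11.5% of all genes above it and 12.7% below it. The values were 0.85 ± 0.06 for LMO2 (adjusted p = 1.08e-17), 0.68 ± 0.07 for LYL1 (9.01e-13), 0.38 ± 0.06 for SOX4 (9.26e-07) and 0.35 ± 0.07 for FLI1 (2.17e-05). FLI1 lay within the fold limit (0.31) when OTX015 replicate 2 was left out. For GATA2 (-0.01 ± 0.10) and RUNX1 (-0.04 ± 0.06) the interaction was not called. The median of the 9 genes was 0.23 and that of all genes -0.01. LMO2, LYL1 and GATA2 encode members of the same enhancer complex, and of these LMO2 rose with both agents while GATA2 fell.

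**Figure D5:**
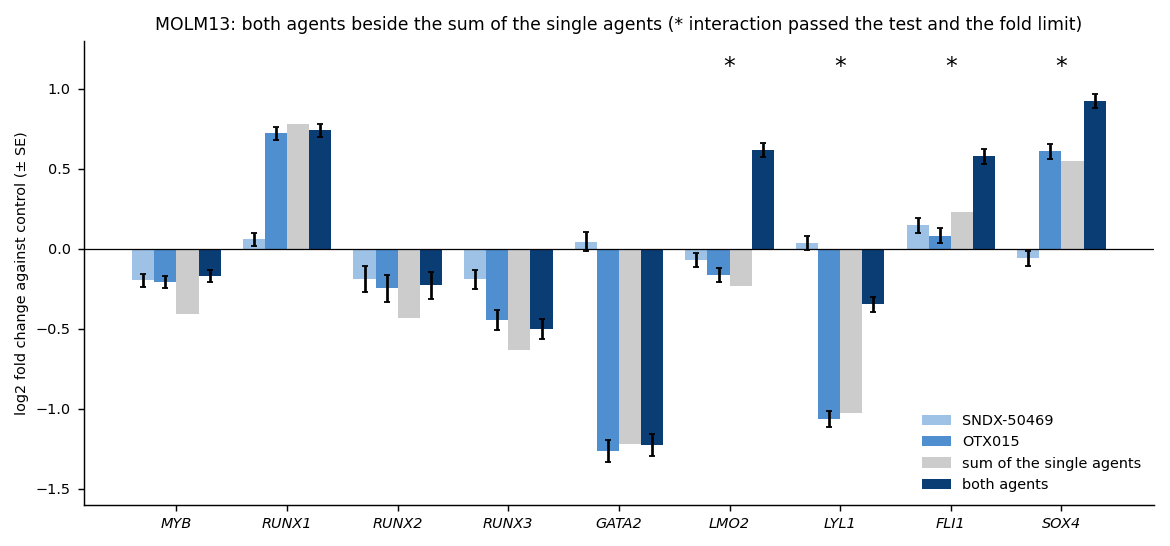
Log2 fold change from the MOLM13 controls (y axis, ± SE) with SNDX-50469, with OTX015, as the sum of those values (grey, no error drawn) and with both agents, for 9 genes (x axis). Asterisks mark the interactions that were called, at LMO2, LYL1, FLI1 and SOX4, and at GATA2 and RUNX1 the grey and dark bars are nearly level.

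In MV4-11, 1000 nM SNDX-50469 changed 3 of the 9 genes tested, against 20.7% of all genes, with MYB and RUNX2 lower and RUNX3 higher. MYB fell from 619 and 553 CPM in the controls to 280.2 and 315 (log2 -0.96 ± 0.16, adjusted p = 0.000504). RUNX2 fell from 38.9 and 42.4 to 14.7 and 19.4 CPM (-1.23 ± 0.18, 0.000139). Neither gene's groups overlapped, and both calls held when any library was left out, with MYB between -1.05 and -0.90 and RUNX2 between -1.45 and -1.07. RUNX3 rose from 144 and 132 to 196 and 181 CPM (0.47 ± 0.15, 0.0319), a call that was lost without control replicate 1 (0.51, adjusted p = 0.128), control replicate 2 (0.43, 0.169) or treated replicate 1 (0.39, 0.163). RUNX1 read 416 and 406 CPM in the controls and 251 and 355 in the treated libraries (-0.42 ± 0.18, 0.0999). With each library left out in turn, its value ran from -0.21 (without treated replicate 1) to -0.70 (without treated replicate 2). LYL1 read 0.36 ± 0.16 (0.116), and 0.21 to 0.48 over the same runs. GATA2 had only 31 to 60 counts per library here and read -0.68 ± 0.34 (0.167), and LMO2, FLI1 and SOX4 read between -0.34 and -0.06 with adjusted p from 0.121 to 0.839. ERG was left out by the filter, with 5 and 2 counts in the controls and 3 and 6 in the treated libraries.

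In OCI-AML3, 500 nM SNDX-50469 changed 3 of 10 genes, against 13.1% of all genes. GATA2 rose from 3.93, 3.57 and 3.75 CPM in the controls to 9.48, 10.1 and 10.5 (log2 1.42 ± 0.07, a ratio of 2.68, adjusted p = 4.67e-09). The treated level was still below every MOLM13 library. RUNX2 fell from 80.8, 85.2 and 88.3 to 44.02, 47.04 and 48.5 CPM (-0.86 ± 0.04, 4.17e-09). ERG fell from 8.71, 8.66 and 8.22 to 5.96, 6.58 and 6.41 CPM (-0.43 ± 0.06, 0.000127). Each of these genes had separate groups, and leaving out any library kept the 3 calls. MYB went from 277, 289 and 282 CPM in the controls to 226.6, 226.6 and 230.7 (-0.31 ± 0.02, 7.03e-07), without overlap but within the fold limit. SOX4 (-0.26 ± 0.03), RUNX1 (-0.19 ± 0.03), RUNX3 (-0.19 ± 0.04), LMO2 (-0.12 ± 0.04) and FLI1 (-0.12 ± 0.03) had adjusted p from 5.44e-05 to 0.0413, also within it, and LYL1 read 0.02 ± 0.05.

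At the shared dose of 500 nM, the response of OCI-AML3 minus that of MOLM13 was called for 2 of 10 genes, against 4.1% of all genes. The difference was 1.41 ± 0.11 on the log2 scale for GATA2 (adjusted p = 6.03e-08) and -0.65 ± 0.13 for RUNX2 (0.00347). For 7 of the other genes it lay between -0.24 and 0.03 with adjusted p from 0.256 to 1, and for ERG, with at most 1 count per MOLM13 library, it has no meaning. RUNX2 had log2 values of -0.19 ± 0.08 in MOLM13 at 500 nM and -0.86 ± 0.04 in OCI-AML3 at 500 nM, and of -1.23 ± 0.18 in MV4-11 at 1000 nM. For GATA2 the values were 0.04 ± 0.06, 1.42 ± 0.07 and, on few counts, -0.68 ± 0.34.

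Of 15 genes for partners and cofactors of these factors, OTX015 raised 8 and lowered 3 in MOLM13 (73.3% called, against 48.1% of all genes), with a median log2 change of 0.44 against 0.01 over all genes. CBFA2T3, a corepressor of the ETO family, fell most (-2.12 ± 0.08), and ZFPM1 (the GATA cofactor FOG1, 0.87 ± 0.09), EP300 (a histone acetyltransferase, 0.78 ± 0.05) and CBFA2T2 (0.78 ± 0.08) rose. With both agents 8 rose and 3 fell (73.3%, against 62.1% of all genes), with a median of 0.92 against 0.02, led by SSBP2 (1.85 ± 0.22) and SSBP3 (1.35 ± 0.06), which stabilise LDB1 complexes, CBFA2T3 (-1.70 ± 0.08) and EP300 (1.296 ± 0.04). With SNDX-50469, where 13.3% of all genes were called in MOLM13, 20.7% in MV4-11 and 13.1% for OCI-AML3, 3 of 15 rose in MOLM13 (SSBP2 at 0.79 ± 0.24, EP300 at 0.43 ± 0.05 and CREBBP at 0.43 ± 0.05), 4 rose and 3 fell in MV4-11, and 3 rose and 2 fell in OCI-AML3. CBFB, the partner of every RUNX protein, fell in MV4-11 (-0.78 ± 0.17, adjusted p = 0.00381) and was not called in the other SNDX-50469 comparisons or with OTX015.

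Of 18 relatives from the same families, 11 were tested in MOLM13. OTX015 changed 45.5% of them and both agents 54.5%, near or below the 48.1% and 62.1% of all genes. With OTX015, MYBL1, a relative of MYB (1.84 ± 0.18), and ETS1, a relative of FLI1 (1.03 ± 0.08), rose, while 3 fell, among them LMO4 (-0.86 ± 0.05) and SOX12 (-0.76 ± 0.05). With both agents 3 rose and 3 fell, and the values were 2.14 ± 0.17 for MYBL1, 1.78 ± 0.07 for ETS1 and -1.603 ± 0.05 for SOX12. LMO4 fell with SNDX-50469 alone as well (-0.89 ± 0.05). The list's median was 0.10 with OTX015 and 0.20 with both agents. In MV4-11, 3 of 10 tested relatives fell and 0 rose (30% called, against 20.7% of all genes), and in OCI-AML3 1 of 13 rose and 1 fell (15.4%, against 13.1%), the latter being TAL1 (-0.72 ± 0.12), the relative of LYL1 that partners LMO2 in early blood cells.

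Of 18 other stem and progenitor regulators, 11 were tested in MOLM13. OTX015 raised 2 and lowered 5 (63.6% called, against 48.1% of all genes), with a median of -0.10. ID2, an inhibitor of basic helix-loop-helix factors, rose (1.80 ± 0.06), as did ID1 (0.78 ± 0.18), and the stem cell factor HLF (-1.15 ± 0.31) and the zinc finger gene ZBTB16 (-3.08 ± 0.90) fell. With both agents, 3 rose and 5 fell (72.7%, against 62.1% of all genes), and HLF read -2.38 ± 0.38, NKX2-3 -1.90 ± 0.18 and ID2 2.13 ± 0.06. With SNDX-50469 alone 1 of 11 rose in MOLM13 (ID3, 1.84 ± 0.31), against 13.3% of all genes called. In MV4-11, ID3, ID1 and ID2 rose (2.68 ± 0.58, 1.94 ± 0.39 and 1.32 ± 0.17) and 2 of the 10 tested fell, among them BCL11A (-1.17 ± 0.16), against 20.7% of all genes called. In OCI-AML3, 3 of 8 rose and 2 fell (13.1% of all genes were called), with BCL11A at 2.15 ± 0.28 from 0.228 to 0.99 CPM, a low level.

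Of 10 textbook target genes of these factors, 7 were tested in MOLM13. OTX015 lowered 6 and raised 0, with a median of -1.09, where 24.7% of all genes were lower. Both agents lowered 5, with a median of -1.24, where 30.9% of all genes were lower. MPO, the neutrophil peroxidase gene, fell from 106 ± 0.381 CPM to 4.5 ± 0.853 with OTX015 (-4.53 ± 0.09), and CSF1R, the M-CSF receptor gene, fell by 3.40 on the log2 scale. MYC read 1747 ± 57.4 CPM (SD, n = 2) in the controls, 1348 ± 3.37 with SNDX-50469, 804 ± 9.39 with OTX015 and 242 ± 13.6 with both. BCL2, an antiapoptotic gene, fell with SNDX-50469 in MV4-11 (-2.12 ± 0.16) and OCI-AML3 (-0.90 ± 0.03). With SNDX-50469, 2 targets rose and 1 fell in MOLM13, 2 rose and 3 fell of 9 in MV4-11, and 4 of 9 fell in OCI-AML3, against 13.3%, 20.7% and 13.1% of all genes called either way. CSF1R rose in MOLM13 (1.097 ± 0.11) and MV4-11 (1.15 ± 0.15) and fell in OCI-AML3 (-0.75 ± 0.07).

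Reads of antisense and overlapping RNAs cannot be told apart from those of the genes, because the sources used here do not give the strand setting of the counting. GATA2-AS1, divergent from GATA2, fell with OTX015 (-0.72 ± 0.07) but not past the fold limit with both agents (-0.29 ± 0.07), where GATA2 read -1.23. SENCR, which runs antisense at the FLI1 locus, rose with both agents (0.67 ± 0.27, adjusted p = 0.0226), as FLI1 did. SUPT3H, which overlaps RUNX2, was not called with SNDX-50469 in MV4-11 (-0.12 ± 0.34) or OCI-AML3 (-0.30 ± 0.08, within the fold limit), where RUNX2 fell. Of the nearest tested genes on either side of the 5 genes that OTX015 changed, 3 of 10 moved the same way and 2 the opposite way, a share of called genes near the 48.1% of all genes. EEFSEC, 53199 bases from GATA2, rose (0.65 ± 0.07) where GATA2 fell. NFIX and TRMT1, 237 and 2049 bases from LYL1 in a dense part of chromosome 19, both fell with OTX015 (-0.40 ± 0.06 and -0.73 ± 0.05) and with both agents (-1.03 ± 0.07 and -1.67 ± 0.05), where LYL1 read -0.35. ETS1, 97574 bases from FLI1, rose with both agents (1.78 ± 0.07). In OCI-AML3 the neighbours of GATA2 read 0.05 ± 0.05 (EEFSEC) and -0.19 ± 0.02 (RPN1), those of RUNX2 0.01 ± 0.03 (CDC5L) and -0.27 ± 0.15 (CLIC5), and those of ERG -0.39 ± 0.18 (KCNJ15) and -0.02 ± 0.03 (ETS2), of which RPN1 had an adjusted p below 0.05 (4.04e-05) but lay within the fold limit.

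Over the 18 libraries, the genes whose log2 CPM was most like that of a factor were found among 10250 genes with a mean of at least 5 CPM, as a description across libraries that share line, medium and depth. For ERG they were NEURL1 and ADGRL2 (Pearson r of 0.999 and 0.998), for RUNX3 TYROBP (0.988) beside a pseudogene of EEF1A1, for LYL1 SORBS3 (0.987) and KCNN4 (0.981), and for RUNX1 DIPK2A and RFX2 (both 0.984). For GATA2 they were MCM3 (0.973) and RUBCNL (0.961), for FLI1 NFKBIA (0.979) and CFLAR (0.977), for SOX4 CCND3 (0.971) and DONSON (0.969), for RUNX2 DR1 (0.968) and MAT2B (0.959), and for MYB FOXP1 (0.939) and ADK (0.935). The value was lowest for LMO2, whose most alike gene was C4orf36 (0.895). The highest and lowest library of a gene differed by 2.04 times for LMO2, 2.58 for FLI1, 2.73 for MYB, 3.33 for SOX4, 4.61 for LYL1, 5.0 for RUNX1, 6.02 for RUNX2, 6.62 for RUNX3 and 56.1 for GATA2.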

How the data were processed

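Total RNA was sequenced from 18 libraries of MOLM13, MV4-11 and OCI-AML3 cells. The authors deposited raw read counts, not normalized, for 58037 Ensembl gene IDs, of which 40894 were given a symbol. STAR and hg38 stand in the submitters' processing notes with no version, and the study's methods describe TopHat2 and Cufflinks2 instead. The sources used here do not give the counter, its strandedness or the gene annotation. The genes and lists were chosen with earlier results of these data known. Named genes were the 10 factors, up to 4 called genes of a list per comparison with the largest change, the nearest tested neighbours, the 2 most alike genes, MEIS1 and HEXIM1, and 1 of the most alike genes is not reported here. Counts were fitted per line, and over all 18 libraries for differences between lines, with edgeR 4.0.16 (TMM, filterByExpr, quasi-likelihood test, Benjamini-Hochberg adjustment over all genes tested) in R 4.3.3. Calls required 1.25-fold or more together with adjusted p under 0.05. DESeq2 1.42.0, limma 3.58.1 (voom with quantile normalization), other scalings, no filter, no fold limit, another set of libraries, a replicate block and leaving out each library were alternatives. The code was tested on simulated data. Positions and promoters are from RefSeq (GRCh38.p14), lengths from GENCODE. Intervals and floors (3 counts) cover counting error only, since PCR copies are not independent molecules. Replicates differed by more than sampling noise (chi-square per degree of freedom from 1.46 to 43.9).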

Additional observations from a re-analysis of the deposited data

Results flagged for a closer look

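The interaction of SNDX-50469 and OTX015 in MOLM13 passed the test and the fold limit for 4 of 9 genes, so the response to 1 agent differed with the presence of the other. The log2 values were 0.85 ± 0.06 for LMO2, 0.68 ± 0.07 for LYL1, 0.38 ± 0.06 for SOX4 and 0.35 ± 0.07 for FLI1, with 2 libraries in each of the 4 groups and edgeR adjusted p of 1.08e-17, 9.01e-13, 9.26e-07 and 2.17e-05.

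The response to 500 nM SNDX-50469 differed between OCI-AML3 and MOLM13 for GATA2 (OCI-AML3 minus MOLM13, log2 1.41 ± 0.11, adjusted p = 6.03e-08) and RUNX2 (-0.65 ± 0.13, 0.00347). All groups held 2 or 3 libraries, so no test for a single outlying library was run.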

How the results depend on the processing

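Of 56 called values for these genes, 51 kept their direction and their call under every alternative run, and 0 of 722 alternative values turned direction. LYL1 with both agents against control was lost with limma (-0.26), without scaling factors (-0.25), with upper-quartile scaling (-0.30) and without MOLM13 control replicate 1 (-0.31). FLI1 in the interaction was lost without OTX015 replicate 2 (0.31), and RUNX3 in MV4-11 without 3 of the 4 libraries in turn (0.39 to 0.51). SOX4 between untreated lines was lost with limma (MOLM13 against MV4-11, 0.28, and MV4-11 against OCI-AML3, -0.30) and, for the latter, without MV4-11 control replicate 1 (-0.32).

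For the 53 values not called, 40 alternative values passed their threshold, most without the fold limit or in MV4-11. The others were SOX4 for both agents against OTX015 under 5 settings (0.3258 to 0.3808), MYB (-0.4456 to -0.3568) and LYL1 (-0.4549 to -0.3799) between untreated MOLM13 and MV4-11, and RUNX3 for both agents against SNDX-50469 without replicate 1 of either group (-0.3792 and -0.3967).

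Without the fold limit the number of these genes called was 3 for SNDX-50469 in MOLM13, 8 for OTX015 and 9 in OCI-AML3, and the fit over all 18 libraries called 7 in MV4-11. Leaving out each library in turn gave 0 for SNDX-50469 in MOLM13, 5 for OTX015, 6 to 7 for both agents against control or SNDX-50469, 3 against OTX015, 3 to 4 in the interaction, 2 to 5 in MV4-11, 3 in OCI-AML3, 2 for the difference in response, and 8, 7 to 8 and 9 to 10 between untreated lines (MOLM13 and OCI-AML3, MOLM13 and MV4-11, MV4-11 and OCI-AML3). A lone library was assumed to vary like the other groups.

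With a replicate block, MV4-11 had 4 calls, RUNX1 being added (-0.44, adjusted p = 0.0313), and the other counts did not move. Deviations of same-numbered libraries correlated at -0.052 to 0.032 in MOLM13, 0.115 in MV4-11 and 0.006 to 0.116 in OCI-AML3. So few pairs cannot exclude shared days.

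Values near 0 that were not called turned sign. For both agents against SNDX-50469 this was RUNX2 without scaling factors (0.0074), and against OTX015 RUNX3 with limma (0.0008) and, without the filter, RUNX1 (-0.0065) and RUNX2 (-0.0067). In the interaction it was GATA2 with DESeq2 (0.0201), upper-quartile scaling (0.0204), no filter (0.0027) and all 18 libraries (0.0536), and RUNX1 with limma (0.0094) and all 18 libraries (0.0177). In MV4-11 it was FLI1 with limma (0.0361). For the difference in response it was RUNX3 with limma (-0.0321) and upper-quartile scaling (-0.008), and LYL1 with limma (-0.0655), no scaling factors (-0.014) and upper-quartile scaling (-0.0268). Between untreated MOLM13 and OCI-AML3 it was LMO2 with DESeq2 (-0.0034), limma (-0.0939), no scaling factors (-0.1933), upper-quartile scaling (-0.0249), no filter (-0.0541) and the replicate block (-0.0491), and SOX4 with limma (-0.0127) and no scaling factors (-0.1326). The cause was not tested.

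Leaving out single libraries also turned GATA2 (-0.0011 to 0.0839) and LYL1 (-0.0126 to 0.077) with SNDX-50469 in MOLM13, MYB (-0.0075 to 0.0564) and RUNX2 (-0.1162 to 0.045) for both agents against SNDX-50469, RUNX2 (-0.0654 to 0.096) and RUNX3 (-0.1508 to 0.0307) against OTX015, GATA2 (-0.052 to 0.0339) in the interaction, FLI1 (-0.2136 to 0.1028) in MV4-11, LYL1 (-0.0386 to 0.0971) in OCI-AML3, RUNX3 (-0.0347 to 0.1009), LMO2 (-0.072 to 0.0398) and LYL1 (-0.0477 to 0.0818) in the difference in response, and LMO2 (-0.0609 to 0.0607) between untreated MOLM13 and OCI-AML3.

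Counts over all genes follow. In MV4-11 the 3208 calls became 5934 over all 18 libraries, 1798 without control replicate 1 and 1637 without treated replicate 1. The 721 calls for the difference in response became 1369 with only the groups compared and 462 to 473 without a MOLM13 library. The share of calls that were higher moved from 60.6% to 50.04% (DESeq2), 74.3% (no scaling factors), 49.5% (no filter), 46.2% (no fold limit) and 47.6% (all 18 libraries) for SNDX-50469 in MOLM13, from 47.6% to 58.8% (all 18 libraries) for the interaction, and from 65.5% to 50.8% (limma), 76.6% (no scaling factors) and 49.5% (no fold limit) in OCI-AML3. Leaving out the scaling factors moved the median of all genes by -0.20 between untreated MOLM13 and OCI-AML3 and by -0.14 between MOLM13 and MV4-11.

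Depth limits GATA2 in MV4-11 and ERG outside OCI-AML3.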
